A study of Caenorhabditis elegans with 2 samples.

Results

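Peaks of SNPC-4 that lie inside protein-coding genes, far from any annotated gene start, made up 255 of the 2319 nuclear peaks of the thresholded list. They were chosen by position alone. The summit had to lie within the span of a protein-coding gene and more than 500 bp from every annotated transcript 5′ end of any gene class except PIWI-interacting RNAs (piRNAs). Of all nuclear peaks, 643 had their summit inside a protein-coding gene, and 388 of these were left out because a 5′ end lay within 500 bp. They are called intragenic distal peaks here. The last peaks to be taken lay 502 bp (syg-2), 515 bp (ZC443.4) and 517 bp (ben-1) from the nearest 5′ end, with signals of 67.8, 40.0 and 32.9. The nearest ones left out lay at 493 bp (K09E4.4), 492 bp (daf-5) and 491 bp (F54B11.9), with signals of 73.7, 55.0 and 78.9.

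SNPC-4 corresponds to SNAP190, a DNA-binding part of the human complex SNAPc, which activates small nuclear RNA genes. SNAPc binds the proximal sequence element, a promoter element just upstream of genes for spliceosomal small nuclear RNAs (snRNAs) and of some other short non-coding RNAs. There it helps RNA polymerase II or RNA polymerase III to start. In the worm germline SNPC-4 is also known to act at piRNA genes. Introns of protein-coding genes are transcribed with the gene and spliced out, and many worm small RNA genes lie within them.

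The assay was ChIP-seq, sequencing of DNA that comes down with a protein, here eGFP-tagged SNPC-4 from whole Caenorhabditis elegans L1 larvae, males and females pooled. Both samples, biological replicates 1 and 2, come from strain OP179, which carries the integrated transgene wgIs179 with tagged snpc-4 in the unc-119(ed3) background. They form a single group, so no treatment or genotype is compared, and comparisons are between sets of peaks of the same 2 libraries. The p-values therefore speak of the deposited lists, and say nothing of how animals vary. Because whole larvae were used, few cells with strong binding and many cells with weak binding cannot be told apart. No read counts come with the peaks, so the depth is unknown. A peak's signal is the authors' own value, and sets of peaks are compared by it only within a list.

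The sets used for comparison come from the same lists. They are 1279 peaks within 500 bp of a protein-coding start, 413 intergenic distal peaks, and 10264 relaxed peaks. Intergenic distal peaks lie outside protein-coding genes and more than 500 bp from any 5′ end, piRNAs again excepted. The relaxed peaks are those of the relaxed pooled list that failed the authors' threshold but meet the same positional rule. The sequence that the rule could take, protein-coding gene spans more than 500 bp from a 5′ end, covers 44450410 bp.

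Most of the strongest intragenic distal peaks carried one sequence pattern. It was defined on other peaks, a set of 141 at snRNA, spliced leader RNA (SL RNA) and small nucleolar RNA (snoRNA) starts, none of which is an intragenic distal peak. The pattern spans 24 bases and its most constant letters are GCGGAACCCGC, then NANN, then TGTCNG, where N is a position with no letter at 60% or more. The 8 sequences below, from peaks of high signal, show how far the matches called by score vary. Capitals mark the 24 bases of the match, and each sequence reads 5′ to 3′ in the direction of the pattern.
bed-2: caaGTGGCGGAACCCGGGAAGCGTCGGctg
srd-70: gtgACGGGCGGACCTGTGCAGCGTCGGccg
Y46G5A.34: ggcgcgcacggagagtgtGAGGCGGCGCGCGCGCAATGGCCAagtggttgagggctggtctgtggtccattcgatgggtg
lin-66: tgaTGCGCGCAACTCGGAAAGTGTCGGctg
noca-1: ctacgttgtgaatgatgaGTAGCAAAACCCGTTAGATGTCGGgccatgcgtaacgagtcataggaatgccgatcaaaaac
C33B4.4: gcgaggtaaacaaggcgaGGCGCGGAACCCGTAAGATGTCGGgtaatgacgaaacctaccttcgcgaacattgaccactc
Y48A6C.4: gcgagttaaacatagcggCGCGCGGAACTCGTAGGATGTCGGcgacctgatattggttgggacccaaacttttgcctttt
sre-45: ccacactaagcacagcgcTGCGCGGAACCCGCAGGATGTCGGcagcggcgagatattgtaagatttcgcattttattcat
On build ce11 (WBcel235, RefSeq sequence) these are bed-2 at chrIII:11464012-11464041 (plus strand), srd-70 at chrV:20455831-20455860 (plus strand), Y46G5A.34 at chrII:12778477-12778556 (minus strand), lin-66 at chrIV:13893342-13893371 (plus strand), noca-1 at chrV:13163057-13163136 (plus strand), C33B4.4 at chrII:11376930-11377009 (minus strand), Y48A6C.4 at chrIII:11124049-11124128 (minus strand) and sre-45 at chrII:13522000-13522079 (plus strand). Windows in exonic sequence are cut to 3 bases on each side of the match. The right end of the match, TGTCGG or CGTCGG, is in all of these but that of Y46G5A.34. That match also reads GCGGCGCGCGC in place of GCGGAACCCGC, and G and C made up 70.3% of the bases within 50 bp of its summit. It is a match by score only. The score takes no account of the G and C content of a window. The median content was 54.5% over intragenic distal peaks with a match and 47.5% over those without, a difference that was not tested.

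Matches fell into families of related sequence as well as single copies. Of 120 intragenic distal peaks with a match, 62 belonged to 4 groups in which the match and 15 bases on each side were at least 80% identical to another member of the group. The other 58 resembled no other match at that level. The largest group held 37 peaks, 27 of them on chromosome X, and 5 of its members with high signal are below.
F52E10.4: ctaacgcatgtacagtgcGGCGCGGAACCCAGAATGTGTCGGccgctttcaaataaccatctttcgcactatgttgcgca
C18D11.1: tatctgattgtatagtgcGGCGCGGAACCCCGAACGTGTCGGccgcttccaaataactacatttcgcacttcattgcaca
R02E4.1: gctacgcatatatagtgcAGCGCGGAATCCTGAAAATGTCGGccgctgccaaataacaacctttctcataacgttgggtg
gbb-1: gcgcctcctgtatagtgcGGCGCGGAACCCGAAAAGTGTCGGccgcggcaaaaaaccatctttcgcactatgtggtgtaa
F35H12.1: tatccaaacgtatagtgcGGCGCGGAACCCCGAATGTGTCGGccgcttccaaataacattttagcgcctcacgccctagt
The next group held 12 peaks, 9 of them on chromosome X, and differed before the match.
nfki-1: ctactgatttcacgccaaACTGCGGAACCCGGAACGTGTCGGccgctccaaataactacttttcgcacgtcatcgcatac
jud-4: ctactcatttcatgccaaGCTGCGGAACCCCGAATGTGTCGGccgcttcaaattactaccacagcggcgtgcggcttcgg
ZK1073.2: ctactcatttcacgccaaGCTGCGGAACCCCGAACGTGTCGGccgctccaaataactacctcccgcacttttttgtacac
gfi-3: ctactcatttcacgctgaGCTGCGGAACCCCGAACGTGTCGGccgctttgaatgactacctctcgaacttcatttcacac
tmem-184: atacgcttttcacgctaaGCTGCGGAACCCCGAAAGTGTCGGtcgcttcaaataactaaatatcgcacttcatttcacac
In both families the resemblance ran past the capitals, and ccgc followed the match in all the sequences shown but that of tmem-184. The windows of the first family lie, on ce11, in F52E10.4 at chrX:16289787-16289866 (plus strand), C18D11.1 at chrIII:11818018-11818097 (minus strand), R02E4.1 at chrX:4103225-4103304 (plus strand), gbb-1 at chrX:2960862-2960941 (minus strand) and F35H12.1 at chrX:936191-936270 (plus strand). Those of the other lie in nfki-1 at chrX:15362317-15362396 (minus strand), jud-4 at chrX:15285674-15285753 (minus strand), ZK1073.2 at chrX:16113146-16113225 (plus strand), gfi-3 at chrX:14481821-14481900 (plus strand) and tmem-184 at chrX:14705071-14705150 (minus strand). Identity over the 54 bases had a median of 75.9% between pairs of the larger group and 87.0% between pairs of the smaller, and ranged down to 57.4% and 74.1%. Most short words in these windows are single-copy. The median share of 36-base words around the summit that occur once in the genome was 100% in the larger group and 94.7% in the smaller. The lowest shares were 72.7% and 25.8%. Bases masked as repetitive had a median share of 37.6% in the larger group and 50% in the smaller, against 19.8% over all nuclear peaks. It was 33.2% over all intragenic distal peaks with a match and 18.8% over those without, a difference that was not tested. A group of 11 peaks, with 3 on chromosome X, and a pair completed the 4 groups.

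A motif match lay within 50 bp of the summit of 120 of the 255 intragenic distal peaks (47.1%), against 18.7% of all nuclear peaks. Peaks at protein-coding starts had one in 132 of 1279 (10.3%). By a two-sided Fisher's exact test, with Benjamini-Hochberg adjustment for the 10 comparisons of lists, adjusted p was 2.07e-37. For intergenic distal peaks the count was 83 of 413 (20.1%, exact test, adjusted p = 8.81e-13). Relaxed peaks under the same rule had 248 of 10264 (2.42%), and windows tiled over the sequence that the rule could take had 1.05%. The peaks on which the pattern was fitted had 88 of 141 (62.4%).

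A comparison added after seeing the data counted each group of related copies among the intragenic distal peaks once, leaving 62 of 197 with a match. In the other sets every copy was kept. The difference was then 21.2 percentage points from peaks at starts (exact test, adjusted p = 8.81e-13) and 11.4 points from intergenic distal peaks (exact test, adjusted p = 0.00615). The single word CGGAACCC, the most frequent 8-base word of the fitted peaks, was at 56 of 255 intragenic distal peaks (22.0%). It was at 31 of 1279 peaks at starts (2.42%) and at 30 of 413 intergenic distal peaks (7.26%). The highest peaks of replicate 1 alone gave smaller differences, of 22.9 percentage points from peaks at starts and 16.6 points from intergenic distal peaks. The match lay close to the summit, its centre within 25 bp in 92 of 120 peaks.

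**Figure D1:**
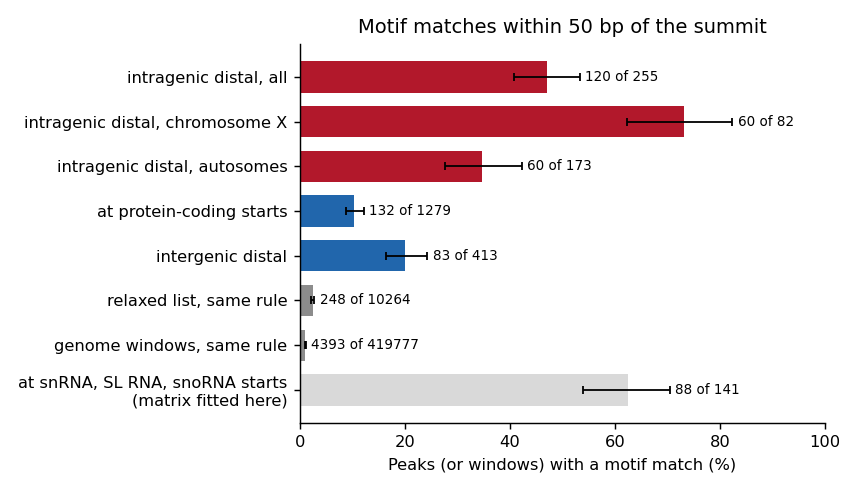
Share of peaks, or of genome windows, with a motif match within 50 bp of the summit (x axis, percent), with exact 95% binomial intervals as bars and counts printed beside. Intragenic distal peaks (red) stood at 47.1%, above peaks at protein-coding starts (10.3%) and intergenic distal peaks (20.1%, blue), and those on chromosome X stood at 73.2%. The light bar is the set on which the pattern was fitted.

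The match pointed with and against the host gene about equally often, while at small RNA genes it mostly followed the gene. At snRNA, SL RNA and snoRNA starts 76 of 88 matches (86.4%) lay on the strand of the small RNA gene, centred at a median of -53.5 bp from its 5′ end. In intragenic distal peaks 62 of 120 (51.7%, exact 95% binomial interval 42.4 to 60.9%) lay on the strand of the host gene. The windows of bed-2, Y46G5A.34 and Y48A6C.4 read against their hosts, and those of srd-70, lin-66, noca-1, C33B4.4 and sre-45 read with them.

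The other 135 intragenic distal peaks had no match at the threshold. The highest 3 of them lay in zfp-1, Y41G9A.17 and mocs-1, and are shown with 50 bases on each side of the summit on the plus strand.
zfp-1: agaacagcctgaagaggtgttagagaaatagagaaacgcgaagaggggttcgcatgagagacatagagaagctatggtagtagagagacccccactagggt
Y41G9A.17: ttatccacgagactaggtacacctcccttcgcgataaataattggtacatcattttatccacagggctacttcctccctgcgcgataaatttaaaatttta
mocs-1: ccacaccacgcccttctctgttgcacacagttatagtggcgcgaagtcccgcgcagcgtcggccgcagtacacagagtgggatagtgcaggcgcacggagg
These windows are zfp-1 at chrIII:8795876-8795976 (plus strand), Y41G9A.17 at chrX:2997048-2997148 (plus strand) and mocs-1 at chrX:15438939-15439039 (plus strand) on ce11. The mocs-1 window holds cgtcggccgc at its best-scoring position, the right end of the pattern with the ccgc that follows it in the largest group shown, and its best score was 8.38, under the threshold of 12.5. The word GAGACGCA, or its reverse complement, was at 26 of 135 peaks without a match (19.3%) and at 0 of 120 with one. It was at 1 of 270 flanking windows 500 bp away (0.370%), at 9.30% of peaks at protein-coding starts and at 57 of 413 intergenic distal peaks (13.8%). That word was picked for its count here, so it has no test.

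Chromosome X held more intragenic distal peaks than any autosome. Of the 255, 82 (32.2%) lay on X, against 16.8% of all nuclear peaks, 9.62% of peaks at protein-coding starts and 26.2% of intergenic distal peaks. The difference passed against peaks at starts (Fisher's exact test, adjusted p = 1.14e-17) and not against intergenic distal peaks (exact test, adjusted p = 0.140, a difference of 6.01 percentage points). Related copies of the pattern count separately in these tests, and the p against starts is too small for that reason. The X share was not compared with related copies counted once. X holds 15.9% of the sequence that the rule could take. Per Mb of that sequence there were 11.6 peaks on X, against 3.90 on I, 5.41 on II, 5.75 on III, 5.23 on IV and 3.22 on V.

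The density on X stood above that on the autosomes among peaks with a match. Per Mb, X had 8.49 peaks with a match and the autosomes 1.61, while peaks without a match stood at 3.11 on X and 3.02 on the autosomes. Of intragenic distal peaks without a match 22 of 135 (16.3%) lay on X, near the 15.9% of eligible sequence that X holds. Peaks at starts without a match had 104 of 1147 on X (9.07%, exact test, adjusted p = 0.0143). Intergenic distal peaks without a match had a higher X share than the intragenic ones, a difference that was not tested. Among intragenic distal peaks 60 of 82 on X (73.2%) and 60 of 173 on autosomes (34.7%) had a match (exact test, adjusted p = 1.86e-08 over 15 comparisons added after seeing the data). Related copies count separately there too, which makes that p too small. The other sets leaned the same way, which was not tested. Intergenic distal peaks had a match in 32.4% on X and 15.7% on autosomes, and peaks at starts in 15.4% and 9.78%. Among intragenic distal peaks with a match the median signal was 55.6 on X and 63.7 on autosomes, a difference that was not tested.

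Strong copies of the pattern were also more often at a peak on X. Within the sequence that the rule could take, X held 246 sites with a score of at least 18.6, or 34.8 per Mb, and the autosomes 924, or 24.7 per Mb. A peak summit lay within 100 bp of 73 X sites (29.7%, exact 95% binomial interval 24.04 to 35.8%) and of 69 autosomal sites (7.47%, 5.86 to 9.36%; Fisher's exact test, two-sided, p = 4.91e-18, added after seeing the data). Related copies count separately in that test, and its p is too small for that reason. Most strong sites had no peak in either part of the genome.

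**Figure D2:**
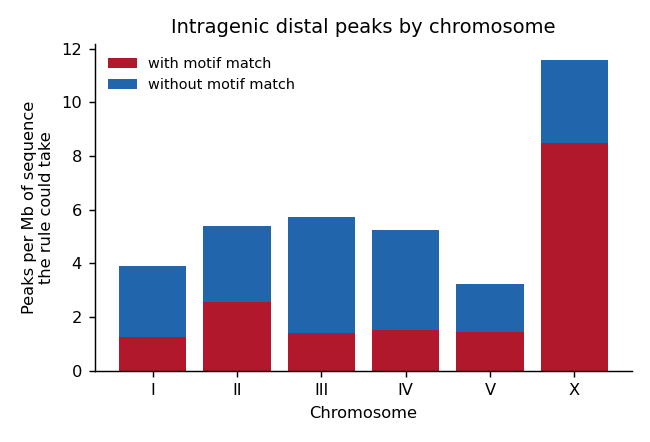
Intragenic distal peaks per Mb of the sequence that the rule could take (y axis), by chromosome (x axis), split into peaks with a motif match (red) and without (blue). X stood at 11.6 per Mb and the autosomes between 3.22 and 5.75, and the blue parts were of similar height on X (3.11) and over the autosomes (3.02).

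Introns held nearly all of these peaks. The summit was in an intron in 235 of 255 (92.2%, exact 95% binomial interval 88.1 to 95.1%), where 55.0% of the sequence that the rule could take is intronic. Relaxed peaks under the same rule had 71.0% in introns (exact test, adjusted p = 7.23e-16). Exonic sequence outside the coding sequence, in untranslated regions or non-coding exons, held 18 peaks (7.06%). A coding exon held only 2, in pks-1, which encodes a polyketide synthase, and in lin-35, which encodes the worm retinoblastoma protein, both named for that position. Coding exons hold 38.7% of the sequence that the rule could take and held 20.3% of the relaxed peaks.

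Within the gene, the peaks were spread over many introns. First introns held 58 of 235 (24.7%), introns 2, 3 and 4 held 30, 24 and 23, and introns 5 or later held 100 (42.6%). Among intronic relaxed peaks 18.7% were in a first intron (exact test, adjusted p = 0.0455), and with introns taken from the longest coding transcript of each gene the adjusted p was 0.0666. The intron had a median length of 1824 bp and a range of 139 to 19925 bp. Over 7288 intronic relaxed peaks the median was 1113 bp, and over each base of intronic sequence that the rule could take it was 979 bp, differences that were not tested. It was the longest intron of the host in 160 of 235 (68.1%). That intron holds on average 51.8% of the eligible intronic sequence of these hosts. Divided into 3 equal parts from the 5′ end, hosts had 82 peaks in the 5′ part, 102 in the middle and 71 in the 3′ part. The eligible sequence is split as 22.8%, 37.9% and 39.4%.

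Peaks with and without a match differed in where they lay. Those with a match were in shorter introns, with a median of 769 bp against 4015 bp without one. The intron exceeded the median of 1824 bp in 30 of 114 with a match (26.3%) and 87 of 121 without (71.9%, exact test, adjusted p = 5.25e-12, added after seeing the data). The first intron held 18 of 114 with a match (15.8%) and 40 of 121 without (33.1%, exact test, adjusted p = 0.00304). Related copies count separately in both tests, and each p is too small for that reason. The median position along the host was 59.8% of the way from its 5′ end with a match and 38.2% without, and the median host length 6145 and 10508 bp. Intron length also followed the chromosome, with a median of 677.5 bp on X and 3173 bp on autosomes, and the part of chromosome X in these differences was not tested.

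**Figure D3:**
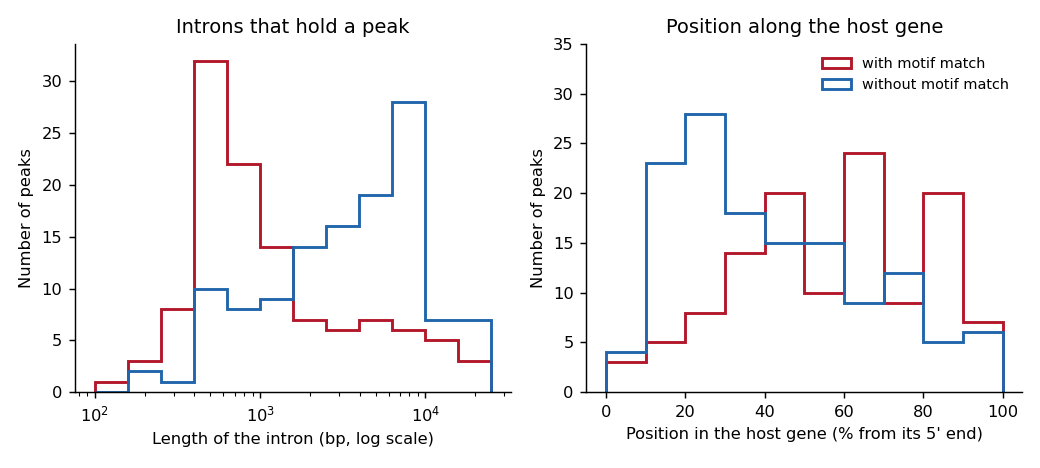
Left, length of the intron that holds the peak (x axis, bp, log scale) against the number of peaks. Right, position of the summit along its host gene (x axis, percent from the 5′ end) against the number of peaks. Peaks with a match (red) had a median intron of 769 bp and a median position of 59.8%, and peaks without (blue) 4015 bp and 38.2%.

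Beyond the 500 bp that the rule set, the nearest 5′ end was at a median of 1414 bp and at most 10026 bp away. The median was 1416 bp for relaxed peaks under the same rule. The nearest 5′ end belonged to the host gene in 170 of 255. The summit was upstream of it in 98 (38.4%). An alternative 5′ end of the host lay further downstream in 118 (46.3%). Only 1 summit lay in the spans of 2 protein-coding genes (soem-1 and ndx-8) and only 1 under an annotated non-coding gene (anr-54, antisense within vhp-1), both named for that. A piRNA 5′ end, which the rule did not use, lay within 500 bp of 14 peaks (5.49%). These counts have no share from other peaks or from eligible sequence beside them, so none can be read as particular to these peaks.

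Signal at these peaks had a median of 51.0 and a range of 32.3 to 1719. The median was 55.0 at protein-coding starts and 48.3 at intergenic distal peaks, and the highest nuclear peak of all reached 6125. Among the 100 highest nuclear peaks 7 were intragenic distal (7%, exact 95% binomial interval 2.86 to 13.9%). Of all 2319 nuclear peaks they are 255, a share within that interval. Signal above the median of all nuclear peaks, which 50% of them exceed, was seen in 118 of 255 (46.3%), in 53.2% of peaks at starts (exact test, adjusted p = 0.0666) and in 42.4% of intergenic distal peaks (exact test, adjusted p = 0.374). The 2 replicates disagreed on this comparison. By the signal of replicate 1 the share minus that at starts was -11.5 percentage points (exact test, adjusted p = 0.00202), and by that of replicate 2 it was 2.52 points (exact test, adjusted p = 0.487). Against intergenic distal peaks it was 11.4 points by replicate 2 (exact test, adjusted p = 0.00950) and -2.61 points by replicate 1 (exact test, adjusted p = 0.565).

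Peaks with a match were the stronger ones in the thresholded list. Their median signal was 60.3, against 44.3 without a match, and 71 of 120 (59.2%) with a match exceeded the nuclear median, against 47 of 135 without (34.8%, exact test, adjusted p = 0.000204, added after seeing the data). The replicates differed in this. By replicate 2 the median signal was 41.2 with a match and 27.2 without. By replicate 1 it was 22.4 and 21.3, and neither difference was tested. Of the 25 highest intragenic distal peaks 19 had a match. Peaks narrower than the usual 344 bp, which is the width of 82.3% of nuclear peaks, were 40 of 120 with a match (33.3%) and 7 of 135 without (5.19%, exact test, adjusted p = 8.32e-09). The narrow peaks were mostly those of high signal, so the difference in width is not independent of the difference in signal.

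The replicates placed most, but far from all, of these peaks at the same summit among their own highest. A match within 100 bp among the 2347 highest peaks of both replicates was found for 140 of 255 (54.9%, exact 95% binomial interval 48.6 to 61.1%), against 63.6% of all nuclear peaks. The share was 67.8% at protein-coding starts (exact test, adjusted p = 0.000245) and 58.1% for intergenic distal peaks (exact test, adjusted p = 0.422). In the whole relaxed lists, 237 of 255 had a summit in both replicates and 2 in neither, and the share minus that at starts was then -1.27 points (exact test, adjusted p = 0.469). On build ce10, where 152 of the 255 could be paired, the difference from starts was -5.38 points (exact test, adjusted p = 0.215). The thresholded list was built by the authors from both replicates, so none of these shares is independent of the choice of peaks.

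Peaks with a match were supported in 76 of 120 (63.3%) and those without in 64 of 135 (47.4%, exact test, adjusted p = 0.0138). Support asks for a high signal in both replicates, so this difference is not independent of the difference in signal. Between replicate 1 and replicate 2, signal had a Spearman's rho of 0.572 over 237 peaks, 0.756 over 116 with a match and 0.382 over 121 without. These values are over peaks of the same 2 libraries and describe them only. The highest peaks of each replicate, taken alone under the same rule, also differed in sequence. In replicate 1 a match was at 85 of 268 and in replicate 2 at 123 of 273.

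**Figure D4:**
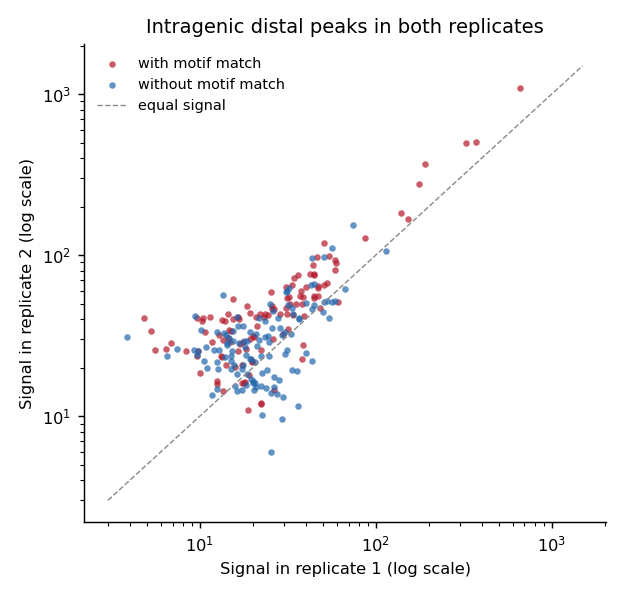
Signal of each intragenic distal peak in replicate 1 (x axis, log scale) and replicate 2 (y axis, log scale), for the 237 peaks with a summit in both relaxed lists, with the dashed line at equal signal. Signal was higher in replicate 2 in 185 of the 237 peaks (78.1%). The lists differ in this as a whole, with medians over nuclear peaks found there of 25.3 in replicate 1 and 31.0 in replicate 2. Scale and depth are unknown, so the offset is no trait of these peaks. The 7 highest peaks, all with a match (red), lay apart at the upper right, each on the replicate 2 side of the line.

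The highest intragenic distal peak was in W04A8.6 (summit at chromosome I 13859257, intron 6), with a thresholded signal of 1719, against 656 in the list of replicate 1 and 1086 in that of replicate 2. It ranked 34 in the whole list, 36 in replicate 1 and 33 in replicate 2. The peak lay 91.3% of the way along the gene, and the nearest 5′ end was that of the neighbouring gene taf-1, 2211 bp away.

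Of the next 4 peaks, 3 lay towards the 3′ ends of their genes. In bed-2, named for a BED-type zinc finger, signal was 880 in the thresholded list, 374 in that of replicate 1 and 505 in that of replicate 2, in a non-coding exon part 95.2% along the gene. In srd-70, a chemoreceptor gene, it was 819, 326 and 493 in the same order, also in a non-coding exon part. The peak of Y46G5A.34 (555, 191 and 369) lay in intron 2, of 4205 bp. In lin-66, a heterochronic gene, the values were 448, 175 and 276, in a non-coding exon part 89.0% along the gene. A piRNA 5′ end lay 358 bp from that summit. In both replicates these 4 followed W04A8.6 in the same order.

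In noca-1, which encodes a protein of non-centrosomal microtubule arrays, the thresholded signal was 322, with 139 for replicate 1 and 181 for replicate 2, in intron 12 of 20. C33B4.4 (320, 152 and 168) held its peak in the first intron, of 7040 bp. All further peaks were at 225 or lower. The highest without a match was in zfp-1, the homolog of the human chromatin protein AF10, with 225, 74.1 and 155 in intron 5. Y41G9A.17 on X had 217, 114 and 106, and Y48A6C.4 on III had 213, 86.9 and 127.

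The rest of the 25 highest had signals between 118.9 and 173, and 9 of these 15 hosts lay on X. With a match were sre-45 (168), another chemoreceptor gene, nfki-1 (154), the worm inhibitor of NF-kappa-B homolog, atat-2 (150), a tubulin acetyltransferase gene, F52E10.4 (150), Y71A12B.8 (145) and C18D11.1 (142). So were R02E4.1 (131), ocr-3 (121), which encodes a TRPV channel subunit, gbb-1 (120), which encodes a GABA-B receptor subunit, F35H12.1 (119.2) and Y48C3A.5 (118.9). Without a match were mocs-1 (173), a gene of molybdenum cofactor synthesis, C33E10.10 (149), epg-9 (135), the autophagy gene homologous to ATG101, and C34C12.2 (135). All 25 were supported by both replicates, which their choice by high signal makes likely.

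The peaks fell in 224 host genes, 1.23% of the 18160 protein-coding genes with sequence that the rule could take. Hosts were long, with a median of 8431 bp over the peaks, against 2219 bp over those 18160 genes, and 78 of 224 (34.8%) exceeded 10 kb, against 5.48%. A single peak was the rule, in 209 hosts, while 15 hosts (6.70%) held 46 of the peaks. A longer gene offers more sequence, and that part of the difference was not tested.

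Several peaks of a host often shared a long intron. Y48C3A.5 held 6 peaks, all in intron 5, of 19925 bp, with signals of 33.1 to 118.9. In pqn-41, a gene of a glutamine-rich protein with a known role in linker cell death, 5 peaks of 43.2 to 96.9 shared intron 15 (7770 bp), none with a match. In zfp-1, 4 peaks of 37.5 to 225 lay in introns 5 and 10, none with a match. In daf-5, the Ski-related partner of dauer TGF-beta signalling, 4 peaks of 45.5 to 89.5 lay in the first intron (14446 bp), and the highest had a match. The forkhead gene fkh-7 held 4 peaks of 39.8 to 76.9 in introns 1, 3 and 4, none with a match. In pde-3, a cyclic nucleotide phosphodiesterase gene, 3 peaks of 60.8 to 91.5 lay in introns 2, 4 and 6. Y105C5A.15 and H40L08.3 also held 3 each, at 36.2 to 53.1 and 35.5 to 57.2. Some of these peaks are near neighbours and may share fragments. Neither snpc-4 nor unc-119 held an intragenic distal peak.

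Per Mb of sequence that the rule could take, all protein-coding genes together had 5.74 peaks. This density does not correct for intron content, and introns held nearly all of the peaks. Genes of Wnt, Notch, TGF-beta and receptor tyrosine kinase signalling had 9 peaks in 6 of 67 genes, or 20.5 per Mb. Of these 4 were in daf-5, and without that gene the density was 11.9 per Mb. Their highest were at mom-1 (signal 110), the Porcupine homolog that readies Wnt for secretion, lag-1 (110), the DNA-binding effector of Notch, daf-5 (89.5) and mpk-1 (77.5), the ERK kinase. Only that of daf-5 had a match. Genes of bHLH, forkhead, GATA, T-box, SOX and ETS factors had 6 peaks in 3 of 99 genes, 21.7 per Mb, of which 4 were those of fkh-7. Without fkh-7 it was 7.80 per Mb. The peaks outside fkh-7 were in hlh-30 (49.2), the TFEB homolog, and egl-27 (47.6), and none of the 4 highest had a match. These densities rest on few genes.

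Nuclear hormone receptor genes had 6 peaks in 6 of 275 genes (9.57 per Mb), among them nhr-19 (79.8), nhr-28 (77.1), nhr-88 (51.0) and daf-12 (47.9), the receptor that controls dauer entry. Homeobox genes had 0 peaks in 99 genes over 314401 bp, and basement membrane and extracellular matrix genes 0 in 28 genes over 225604 bp. At the density of all genes such stretches would hold few peaks, and 0 here is no sign that these genes differ.

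Channel, receptor and synapse genes of neurons had between 1.75 and 7.46 peaks per Mb. Potassium channel genes had 3 peaks in 74 genes (6.38 per Mb), in egl-23 (101), twk-22 (36.6) and twk-45 (33.8), which encode 2-pore channels. Calcium, sodium-leak and TRP channel genes had 2 in 27 (7.46 per Mb), in ocr-3 and in unc-2 (41.1), a voltage-gated calcium channel gene. Ligand-gated ion channel genes had 2 in 112 (4.84 per Mb), in lgc-40 (67.3) and lgc-21 (49.0). All of these 7 had a match, and all but egl-23 and twk-45 lie on X. Of all intragenic distal peaks 47.1% had a match, and of those on X 73.2%. Neurotransmitter and neuropeptide receptor genes had only that of gbb-1 (1.75 per Mb), and synapse genes only that of dgk-1 (93.4), a diacylglycerol kinase gene (2.71 per Mb).

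Axon guidance and adhesion genes had 5 peaks in 86 genes (7.22 per Mb). The highest were in slt-1 (108), the worm Slit, syg-2 (67.8), an immunoglobulin superfamily adhesion gene, sax-7 (54.1), the L1CAM homolog, and hmr-1 (40.3), the classical cadherin gene. The first 3 had a match and hmr-1 had none. Muscle structure genes had 3 in 57 (5.96 per Mb), in tln-1 (69.5), which encodes talin, vab-10 (44.8), which encodes a spectraplakin, and tnt-4 (38.8), a troponin T gene. The list of small GTPase regulators and motors, which also holds kinase genes, had 6 in 126 (7.14 per Mb). The highest were in klc-2 (53.4), a kinesin light chain gene, and rsef-1 (45.6). Next were unc-43 (38.9), which encodes CaM kinase II, and pkc-1 (37.5), also a kinase gene. The density is therefore that of the list and not of GTPase regulators and motors alone.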

How the data were processed

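ChIP-seq of eGFP-tagged SNPC-4 was deposited as peak lists for 2 biological replicates of L1 larvae. Each replicate and their pool has a relaxed list of 30000 peaks, and a thresholded list of 2347 was derived by the authors by the irreproducible discovery rate, per the deposited notes. Of these, 28 mitochondrial peaks were left out. The deposited signal of a peak is the authors' value, and for its scale, the aligner, the peak caller and the depth no value or name is given among the sources used here. Lists on build ce11 were used, with ce10 as an alternative for replicate support. A summit is the peak start plus the distance in the peak file.

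Genes came from Ensembl release 115 of WBcel235 and sequence from the RefSeq copy of that assembly. Introns are gaps between all annotated exons of the host. Expectation maximisation gave a matrix of 24 bases from 141 peaks within 250 bp of snRNA, SL RNA or snoRNA starts (75 bp on each side of the summit), seeded with their most frequent 8-base word and starting 4 bases before it. A match is a score, on either strand, at or above the 99th percentile of 4128 windows 500 bp from other summits, which is 12.5. The stricter threshold of 18.6 is the 99.9th percentile. Letters of the pattern printed are those with a weight of 60% or more in the fitted matrix. Related copies were grouped by single linkage over 54 bases.

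Shares were compared with Fisher's exact test, two-sided, Benjamini-Hochberg adjusted at 0.05 over 10 comparisons. A further 15 were added after seeing the data and adjusted together. Intervals are exact (Clopper-Pearson) at 95% and cover counting error only. The procedures were tested on simulated data with planted matches. The positional rule, the lists of genes and the tests were chosen with earlier results of these data known.

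Hosts named are those of the 25 highest intragenic distal peaks, the 8 hosts with most peaks and those of up to 4 peaks per gene list. Genes at the 500 bp limit, in coding exons, with overlapping genes, or whose window is printed for a sequence family were named for that feature. The tools were scipy 1.17.1, numpy 2.4.6 and pandas 2.3.3 under Python 3.11.15, with matplotlib 3.10.9 for plots.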

Additional observations from a re-analysis of the deposited data

How the results depend on the processing

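The difference in motif matches kept its direction and its side of the threshold against both sets under all alternatives run. These were windows of 25 and 100 bp, each replicate alone, the stricter score, single-copy windows and the upper part of the list by signal. A further one counted related copies once, among intragenic distal peaks only. The chromosome X share and the intron share against relaxed peaks did the same under theirs. Neither of these was run with related copies counted once. Without replicate 2 the difference in matches was 22.9 points from starts and 16.6 points from intergenic distal peaks, and without replicate 1 it was 34.4 and 25.2 points, against 36.7 and 27.0 points with both. By exact tests, replicate support against starts no longer passed with the whole relaxed lists (-1.27 points) or on ce10 (-5.38 points), and against intergenic distal peaks ce10 turned the sign (1.86 points, adjusted p = 0.731). Signal depended on the replicate. With each replicate left out in turn the difference from starts ran from -11.5 to 2.52 points and that from intergenic distal peaks from -2.61 to 11.4 points. With a distance of 250 bp the difference from starts passed (-9.30 points, exact test, adjusted p = 0.00846). The first-intron difference did not pass in the upper part of the list (3.20 points, exact test, adjusted p = 0.422) or with the longest coding transcript (5.47 points, exact test, adjusted p = 0.0666), and that transcript put 86.3% of the peaks in introns and 19 of them outside it. The causes were not tested.

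The upper part of the list by signal held 116 intragenic distal peaks and 5 hosts with 2 or more. Distances of 250 and 1000 bp gave 320 and 177 peaks, and counting piRNA 5′ ends gave 241. Each replicate alone gave 268 to 273 peaks and 19 to 24 hosts with 2 or more. Of the 255 peaks, 205 (80.4%) were found again in the list of replicate 2 and 177 (69.4%) in that of replicate 1. No paired analysis was possible because both replicates belong to a single group. Depth is unknown, so a site without a peak cannot be read as unbound.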
